A study of Mus musculus with 16 samples.

Results

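Epithelial cells of the mammary duct are sealed and held to each other by junction proteins, and 9 genes of these junctions were examined in luminal cells from mice that carried p38α-lox or not, and the PyMT oncogene or not. The genes were Cldn1, Cldn3, Cldn4, Cldn7, Cldn8, Ocln, Tjp1, Cdh1 and Epcam, chosen by symbol, with every array probe set annotated to exactly 1 of these symbols. They had 12 such probe sets among 45141 on the array, 2 each for Cldn1, Cldn3 and Epcam, and were 9 of 17097 genes with a single-symbol probe set.

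Claudins are membrane proteins that form the strands of the tight junction, where the family members present set which ions and molecules pass between cells. Occludin, encoded by Ocln, sits in the same strands, and ZO-1, encoded by Tjp1, links them to actin inside the cell. E-cadherin, encoded by Cdh1, joins cells at the adherens junction below, and EpCAM, encoded by Epcam, is an adhesion protein of epithelial cells that binds claudin-7.

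RNA of the luminal population, isolated by flow sorting from mouse mammary glands, was measured on 16 arrays in 4 groups of 4. The p38α-lox PyMT group carried p38α-lox, MMTV-Cre and MMTV-PyMT and came from mice of 6 weeks. The PyMT group carried MMTV-Cre and MMTV-PyMT, also at 6 weeks. The p38α-lox group carried p38α-lox and MMTV-Cre and came from mice of 9 weeks, and the MMTV-Cre group carried MMTV-Cre alone, also at 9 weeks. MMTV-Cre, present in all 4 groups, expresses the recombinase from a viral promoter active in mammary epithelium, and the same promoter drives polyoma middle T antigen (PyMT), which causes mammary tumours. PyMT and age cannot be told apart, since the groups with PyMT were 3 weeks younger. Every sample title carries the letters FVB, the name of a mouse strain, and no other label used here names one. The sources used here do not give the number of floxed alleles, the deleted exon or whether each array is a separate animal, so every p-value measures the spread between these samples. Mapk14, which encodes p38α, averaged 7.23 ± 0.103 on p38α-lox PyMT arrays and 7.20 ± 0.321 on PyMT arrays, and 7.31 ± 0.862 on p38α-lox arrays against 6.53 ± 0.885 on MMTV-Cre arrays (log2 signal, SD, n = 4 each). It was not lower on the arrays labelled p38α-lox, and nothing used here says whether its probe set covers the deleted part, so this level does not check the deletion.

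The luminal keratins Krt8 and Krt18 were high in all groups, with Krt8 between 12.14 and 12.54 on every array. Some markers of other cells moved with PyMT and others did not. The mean of 7 tested basal markers of 8 listed was 7.35 to 8.07 on p38α-lox PyMT arrays and 7.14 to 8.06 on PyMT arrays, against 5.44 to 7.17 on p38α-lox arrays and 5.81 to 7.48 on MMTV-Cre arrays. Of the immune markers, Ptprc and Cd3e lay under the filter on low signal (3.67 on the log2 scale) and Cd68, a macrophage gene, averaged 9.05 and 8.07 with PyMT (p38α-lox PyMT and PyMT) against 6.31 and 7.30 without it (p38α-lox and MMTV-Cre). Adgre1, another macrophage gene and the only other tested immune marker, averaged 3.81 and 3.77 with PyMT against 3.81 and 3.77 without it. Fabp4, the 1 tested adipocyte marker, averaged 4.67 and 5.94 with PyMT against 4.55 and 4.27 without it, and was not called. The fibroblast and adipocyte markers Pdgfra, Col1a2 and Adipoq also lay under the filter, and the mean of the 3 tested fibroblast markers ran from 5.09 to 8.18 on p38α-lox PyMT arrays, 5.38 to 8.04 on PyMT arrays, 5.20 to 6.06 on p38α-lox arrays and 6.10 to 7.79 on MMTV-Cre arrays. Two-sided tests came from limma, a linear model fitted to all 16 arrays, and calls required an adjusted p (Benjamini-Hochberg, over 14410 tested genes) under 0.05. All 9 genes passed the filter, though Cldn8, with a mean of 3.72, passed by little and through the p38α-lox group.

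**Figure D1:**
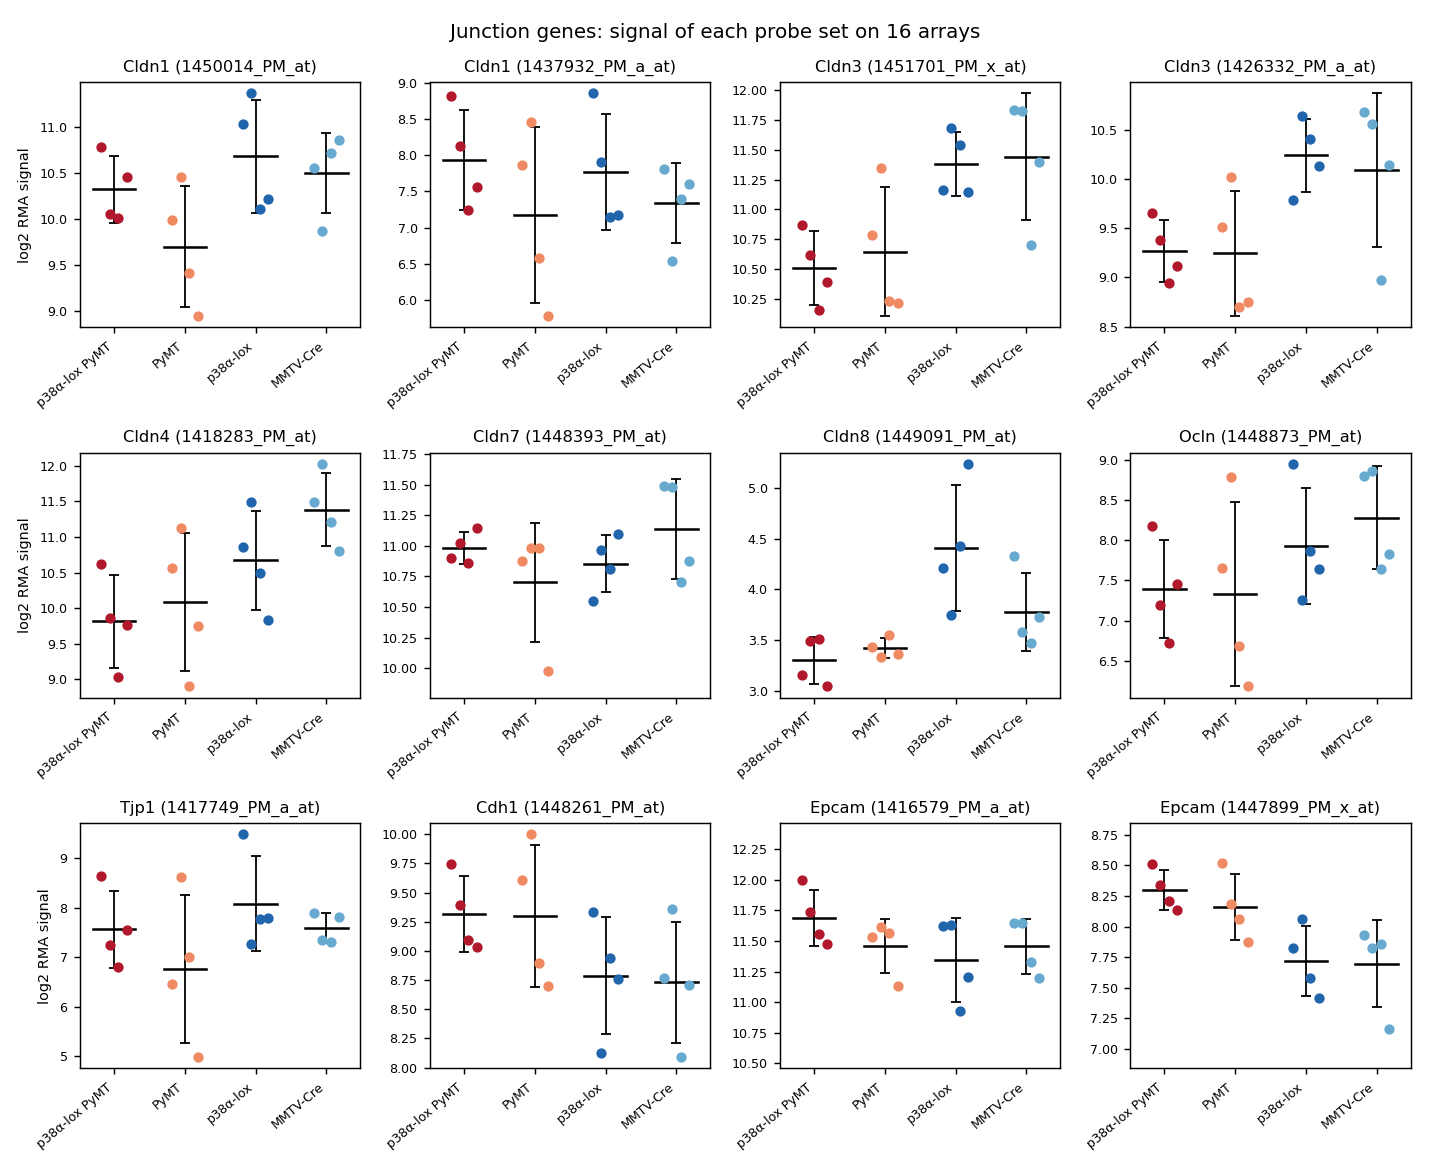
Log2 RMA signal of the 12 probe sets of the 9 junction genes, 1 point per array, with the group mean and SD (n = 4 each); vertical axes differ between panels and do not start at 0. Both Cldn3 probe sets and Cldn8 have all 4 p38α-lox PyMT arrays below all 4 p38α-lox arrays, beside 3.75% of all tested genes. Cldn8 is under the filter on every array with PyMT and was tested only because of its signal on p38α-lox arrays. Cdh1 averages 9.32 and 9.30 in the PyMT groups against 8.79 and 8.73 in the groups without PyMT.

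The first question was what p38α-lox did to the junction genes. None of the 9 genes or 12 probe sets passed the threshold, either without PyMT (p38α-lox against MMTV-Cre) or with it (p38α-lox PyMT against PyMT). The background was the same: 0% of 14410 genes and 0% of 33856 probe sets were called in either comparison, with 690 genes (4.79%) and 516 genes (3.58%) at an unadjusted p under 0.05. Of the junction genes, 1 without PyMT and 0 with PyMT were under that unadjusted p.

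Without PyMT the gene under it was Cldn8, a claudin that tightens the barrier to cations in kidney epithelium. Its signal was 4.21, 3.75, 4.42 and 5.24 on p38α-lox arrays, against 4.32, 3.58, 3.47 and 3.73 on MMTV-Cre arrays. The groups overlapped, since 1 MMTV-Cre array stood above 2 of the p38α-lox arrays, and 2 MMTV-Cre arrays were under the filter. The difference was 0.63 ± 0.260 (log2, SE), with an unadjusted p of 0.0289 and an adjusted p of 0.984. It is given as a description, since Cldn8 was tested only because of its signal on p38α-lox arrays. With PyMT, Cldn8 was under the filter on all 8 arrays, with 3.16, 3.49, 3.51 and 3.04 on p38α-lox PyMT arrays and 3.43, 3.33, 3.55 and 3.36 on PyMT arrays. The difference between the p38α-lox effects with and without PyMT was -0.75 ± 0.367 for Cldn8, with an adjusted p of 0.992, and 0 of the 9 genes, 0% of all genes and 0% of all probe sets were called in that test.

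The other estimates for p38α-lox were wide. Cldn4 had a difference of -0.71 without PyMT, with a 95% interval from -1.72 to 0.29, and of -0.27 with PyMT, with an interval from -1.27 to 0.74. Cldn3 had differences of -0.06 and -0.14, and Cdh1 of 0.06 and 0.02, in the same order. For Cdh1 the intervals ran from -0.65 to 0.76 without PyMT and from -0.68 to 0.72 with PyMT. With 4 arrays a group, differences within these limits are not excluded. With PyMT the largest estimates were those of Tjp1, at 0.79 (-0.56 to 2.15), and Cldn1, at 0.63 (-0.12 to 1.37). Over the 9 genes the median difference was -0.06 without PyMT and 0.06 with PyMT, beside medians of 0.0005 and -0.04 over all tested genes.

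**Figure D2:**
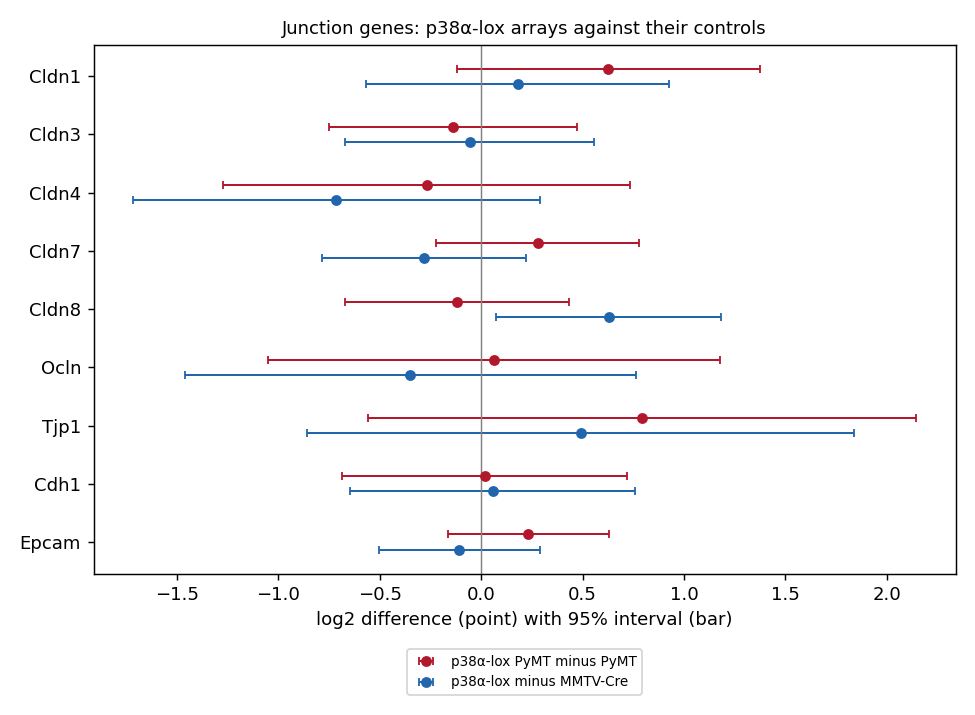
Log2 difference (point) and 95% interval (bar) of each junction gene for p38α-lox PyMT minus PyMT and for p38α-lox minus MMTV-Cre, from limma. All intervals span 0 except that of Cldn8 without PyMT (0.07 to 1.18), whose adjusted p is 0.984.

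The second question was how the junction genes stood in cells with PyMT. The tight junction genes had mostly lower estimates with PyMT. In PyMT against MMTV-Cre arrays 7 of the 9 genes were lower, beside 45% of all genes, with a median difference of -0.80 (all genes, 0.03). In p38α-lox PyMT against p38α-lox arrays 6 of 9 were lower, beside 53.5% of all genes, with a median of -0.52 (all genes, -0.02). These counts and medians include Cldn8, which was tested only because of its signal on p38α-lox arrays, so they are descriptions. Cdh1 and Epcam were not among the lower genes in either comparison, nor was Cldn7 in the second. No junction gene was called in either comparison, beside a background of 1.26% of genes called for PyMT against MMTV-Cre and 0.777% for p38α-lox PyMT against p38α-lox. Among all probe sets 0.851% and 0.529% were called, and again 0 of the 12. At an unadjusted p under 0.05 stood 3 and 2 of the 9, beside 13.8% and 12.2% of all genes. The 2 were Cldn3 and Cldn8. In a comparison added after the data were seen, which set the mean of both PyMT groups against the mean of both groups without PyMT (8 arrays against 8), 6.18% of all genes and 5.35% of all probe sets were called. Cldn3 was called there, as was the dimmer of the Epcam probe sets. Cldn8 also had an adjusted p under the threshold, but it passed the filter only through the p38α-lox group, where it is high, so its call is not counted as support and no share of members is read against the background.

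**Figure D3:**
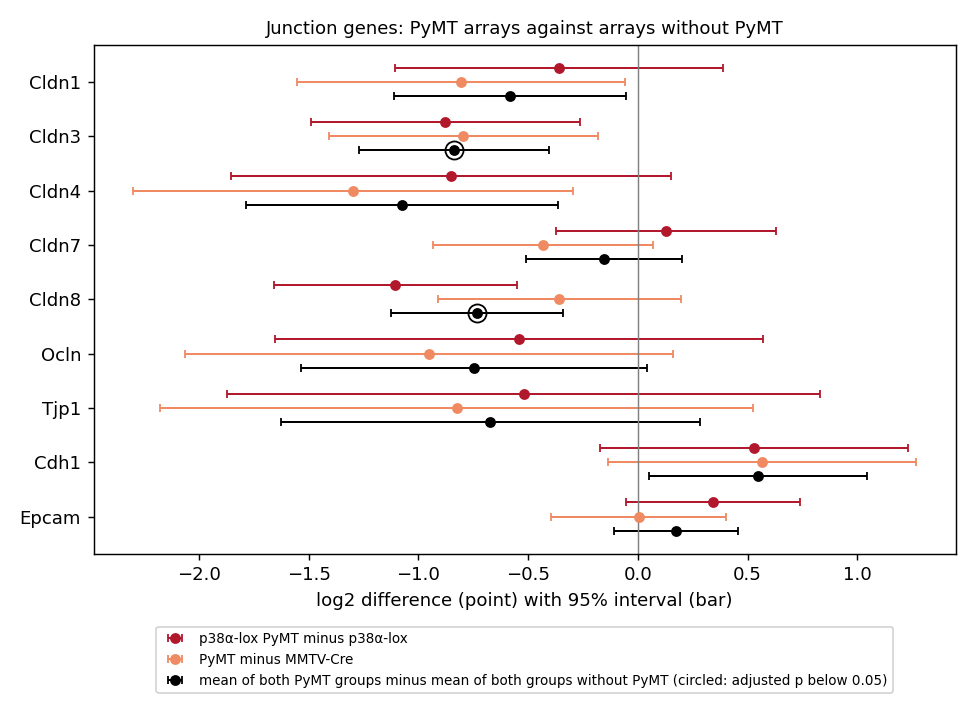
Log2 difference (point) and 95% interval (bar) of each junction gene between arrays with and without PyMT, with p38α-lox, without it, and over both, from limma; circles mark an adjusted p below 0.05. Cldn3 and Cldn8 are circled in the comparison over both (Cldn8 is under the filter on all 8 arrays with PyMT), Cldn4 lies furthest from 0 there at -1.08, and Cdh1 and Epcam lie to the right of 0.

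Cldn3 and Cldn4 encode a pair of claudins that are abundant in glandular epithelium and serve as receptors of a clostridial enterotoxin. Their genes are neighbours on chromosome 5 in GRCm38.p6, Cldn3 at 134986214 to 134987476 on the plus strand and Cldn4 at 134945123 to 134946934 on the minus strand. The starts lie 39280 bases apart with 0 other genes of the RefSeq table between them, and the genes are read away from each other. Cldn3 had 10.87, 10.61, 10.15 and 10.39 on p38α-lox PyMT arrays, against 11.17, 11.68, 11.54 and 11.15 on p38α-lox arrays (log2 signal of its brighter probe set). Every PyMT value of that pair was below every value without PyMT, as for 3.75% of all tested genes, and the exact permutation p was 0.0286, the smallest that 4 arrays against 4 can give (0.350 after adjustment over all genes). Cldn3 had 10.78, 11.35, 10.23 and 10.21 on PyMT arrays, against 11.84, 11.82, 10.70 and 11.40 on MMTV-Cre arrays. Here the groups overlapped, MMTV-Cre replicate 3 being the low one and PyMT replicate 2 the high one. In this pair 0 of the 9 genes had every PyMT value below every MMTV-Cre value, beside 2.65% of all genes, and over both, 0 of 9 did, beside 0.396%.

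The differences of Cldn3 were -0.88 ± 0.287 with p38α-lox (adjusted p = 0.193) and -0.80 ± 0.287 without it (adjusted p = 0.209). Over both, Cldn3 fell by 0.84 ± 0.203, a 1.79-fold lower signal, with an adjusted p of 0.0243. Its second probe set, which followed the first with a correlation of 0.97 over the 16 arrays, gave -0.91 ± 0.259 and an adjusted p of 0.0558. The call was kept in 13 of 16 fits without 1 array. It was lost without MMTV-Cre replicate 1 (-0.77, adjusted p = 0.0521), without p38α-lox PyMT replicate 3 (-0.78, adjusted p = 0.0583) and without p38α-lox PyMT replicate 4 (-0.82, adjusted p = 0.0512). The call was also lost without both p38α-lox replicate 2 and PyMT replicate 4 (-0.72, adjusted p = 0.0773). The name of the first probe set ends in x_at, the mark of probe sets whose probes can also match other transcripts, and with the second in its place the gene's adjusted p was 0.0507.

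Cldn4 had the lowest estimate of the 9 genes for PyMT against MMTV-Cre and over both. Its signal was 10.62, 9.86, 9.03 and 9.76 on p38α-lox PyMT arrays, against 10.86, 11.50, 10.50 and 9.83 on p38α-lox arrays. It was 10.56, 11.13, 8.90 and 9.75 on PyMT arrays, against 11.49, 12.03, 11.22 and 10.81 on MMTV-Cre arrays. In both pairs the PyMT arrays were mostly lower and the groups overlapped. The differences were -0.85 ± 0.470 with p38α-lox (adjusted p = 0.516), -1.30 ± 0.470 without it, a 2.46-fold lower signal (adjusted p = 0.211), and -1.08 ± 0.333 over both (adjusted p = 0.0707).

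Cldn4 also moved with the numbers in the sample titles, whose meaning is unknown here. These numbers form a lower range, with 9 arrays, and a higher one, with 7. Between these ranges Cldn4 differed by -1.01 ± 0.229 (higher minus lower, adjusted p = 0.101), and 0 of the 9 genes were called beside 0.111% of all genes. Each group holds arrays of both ranges. Within the lower range the PyMT minus MMTV-Cre difference of Cldn4 was -1.28, and within the higher range, with 1 PyMT array, it was -2.11. With the range as a covariate, Cldn4 was called in that comparison, at -1.55 and an adjusted p of 0.0291, and over both, at -1.20 and an adjusted p of 0.00659. Cldn3 was called over both with this covariate too, as it was without it.

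The promoters of Cldn3, Cldn4 and Epcam are shown as the 250 bases before the RefSeq start (GRCm38.p6, 5′ to 3′ on the gene's strand), because Cldn3 and Cldn4 varied together over the arrays, with a correlation of 0.84, while Epcam had 0.0083 with Cldn3 and 0.17 with Cldn4. Capitals mark CAGGTG or CACCTG, 1 motif read on either strand, which is the form of the E-box (CANNTG) bound by repressors of the Snail family.
Cldn3, chr5:134985964-134986213, plus strand: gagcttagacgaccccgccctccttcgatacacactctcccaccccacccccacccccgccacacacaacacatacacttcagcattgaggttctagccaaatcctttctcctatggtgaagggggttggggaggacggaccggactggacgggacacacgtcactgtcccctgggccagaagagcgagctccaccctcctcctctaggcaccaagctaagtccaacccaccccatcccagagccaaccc
Cldn4, chr5:134946935-134947184, minus strand: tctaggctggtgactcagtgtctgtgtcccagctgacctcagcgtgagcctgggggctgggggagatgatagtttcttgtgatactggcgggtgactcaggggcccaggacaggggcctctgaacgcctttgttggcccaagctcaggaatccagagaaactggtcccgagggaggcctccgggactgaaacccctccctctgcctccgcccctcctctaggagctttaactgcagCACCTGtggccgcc
Epcam, chr17:87635729-87635978, plus strand: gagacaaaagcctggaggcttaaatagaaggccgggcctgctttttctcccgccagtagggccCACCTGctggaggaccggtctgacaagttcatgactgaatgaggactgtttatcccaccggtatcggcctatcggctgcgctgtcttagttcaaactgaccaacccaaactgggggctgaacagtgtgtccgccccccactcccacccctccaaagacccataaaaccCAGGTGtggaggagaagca
Cldn3 had 0 matches. Cldn4 had 1 match, at -14 with the base before the start as -1. Epcam had matches at -187 and -19. The promoter table held 7 of the 9 genes, Cldn7 and Ocln with 2 starts each, which makes 9 windows. The motif was in 4 of these 9 windows, 1 each of Cldn4, Cldn7, Ocln and Epcam, and in 17.2% of 32841 promoter windows of that length. These 4 windows held 56.4% to 69.2% G and C, beside a median of 52.4% over all windows, and the 2 Ocln windows overlap. The shares were not compared at matched base content, so no enrichment is read from them. Any CANNTG, which includes CAGGTG and CACCTG, was in 5 of the 9 and in 66.2% of all windows. The Grainyhead-type motif AACCNGTT, on either strand, was in 0 of the 9 and in 1.79% of all windows.

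Cldn8 had a low signal. Its 4 p38α-lox PyMT arrays, listed above, all lay below its 4 p38α-lox arrays, as for 3.75% of all tested genes. The difference was -1.11 ± 0.260 (adjusted p = 0.0624). Against MMTV-Cre the PyMT arrays differed by -0.36 ± 0.260 (adjusted p = 0.609). All 8 arrays with PyMT and 2 of the MMTV-Cre arrays were under the filter, so the size of these differences is not measured. Over both, the fitted difference was -0.73 ± 0.184 (adjusted p = 0.0285), given as a description since the gene was tested only because of its signal on p38α-lox arrays. Without p38α-lox replicate 4 it was under the filter and was not tested. Of the 15 fits without 1 other array, 11 kept the call. It was lost without MMTV-Cre replicate 1 (-0.64, adjusted p = 0.0569), MMTV-Cre replicate 4 (-0.74, 0.0529), PyMT replicate 1 (-0.73, 0.0550) or p38α-lox PyMT replicate 4 (-0.69, 0.0635).

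Cldn1, a claudin needed for the barrier of skin, had 9.99, 10.45, 9.41 and 8.94 on PyMT arrays, against 10.56, 9.87, 10.72 and 10.86 on MMTV-Cre arrays. The PyMT arrays were mostly lower and the groups overlapped (-0.80 ± 0.350, adjusted p = 0.319). Its second probe set gave -0.17 ± 0.552, with a wide 95% interval from -1.35 to 1.01. The 2 probe sets correlated at 0.76 over the 16 arrays. With p38α-lox the difference of Cldn1 was -0.36, with a 95% interval from -1.11 to 0.39, and the second probe set gave 0.17, of opposite sign. Over both they gave -0.58 and -0.0013. Cldn7, the partner of EpCAM, stood at 10.86 to 11.14 on p38α-lox PyMT arrays and 10.55 to 11.09 on p38α-lox arrays. It stood at 9.98 to 10.98 on PyMT arrays and 10.70 to 11.49 on MMTV-Cre arrays. Over both, its difference was -0.15, with a 95% interval from -0.51 to 0.20.

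Ocln and Tjp1 varied widely from array to array. Ocln had 7.66, 8.78, 6.68 and 6.19 on PyMT arrays, against 8.80, 8.86, 7.64 and 7.83 on MMTV-Cre arrays. Tjp1 had 6.46, 8.62, 7.01 and 4.98 on PyMT arrays, against 7.89, 7.34, 7.32 and 7.82 on MMTV-Cre arrays. PyMT replicate 2 was the highest and replicate 4 the lowest PyMT array for both genes. The differences were -0.95 ± 0.522 for Ocln and -0.83 ± 0.633 for Tjp1 (adjusted p = 0.463 and 0.633), and without PyMT replicate 4 they were -0.57 and -0.23. With p38α-lox they were -0.54 and -0.52 (adjusted p = 0.761 and 0.825). The median over the 9 genes for PyMT against MMTV-Cre was -0.34 without that array, in place of -0.80. For p38α-lox PyMT against p38α-lox the median was -0.20 without p38α-lox replicate 1, -0.26 without p38α-lox PyMT replicate 3 and -0.81 without p38α-lox PyMT replicate 1, in place of -0.52.

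Cdh1 and Epcam had estimates of 0 or above with PyMT. Cdh1 had 9.75, 9.39, 9.10 and 9.04 on p38α-lox PyMT arrays, against 9.33, 8.12, 8.94 and 8.76 on p38α-lox arrays. It had 9.61, 9.999, 8.89 and 8.70 on PyMT arrays, against 8.76, 9.36, 8.09 and 8.71 on MMTV-Cre arrays. The groups overlapped in both pairs, and over both the difference was 0.55 ± 0.233 (adjusted p = 0.199). The brighter Epcam probe set gave 0.17 ± 0.132 over both (adjusted p = 0.541). The dimmer one had 8.51, 8.34, 8.21 and 8.14 on p38α-lox PyMT arrays, against 7.82, 8.06, 7.58 and 7.42 on p38α-lox arrays, with every PyMT value above, as for 4.05% of all probe sets. Over both, this probe set, another whose name ends in x_at, was called (0.52 ± 0.138, adjusted p = 0.0414), a call kept in 4 of 16 fits without 1 array, and the Epcam probe sets thus differed in call though their arrays correlated at 0.72.

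Basal markers moved in the same comparison: 4 of the 7 tested rose over both, beside 6.18% of all genes called, among them Trp63 by 1.99 and Krt5 by 2.59. Other basal markers did not follow. Oxtr averaged 5.08 and 5.17 with PyMT (p38α-lox PyMT and PyMT) against 5.37 and 5.39 without it (p38α-lox and MMTV-Cre). Myh11 averaged 6.44 and 5.86 against 6.03 and 6.25, in the same order. Cd68 rose by 1.75 over both. None of the 4 luminal keratins was called, with a median difference of 0.02. None of the 5 tested endothelial markers was called over both, with a median difference of 0.06. Esr1, Pgr and Foxa1, the 3 tested markers of hormone-sensing luminal cells, were not called in any comparison with PyMT. Their median difference was -0.89 for PyMT against MMTV-Cre, 0.03 for p38α-lox PyMT against p38α-lox and -0.25 over both. The MMTV-Cre arrays were uneven, with a mean of the 3 markers from 5.26 to 9.23. That mean ran from 5.69 to 6.20 on p38α-lox, 5.20 to 6.90 on PyMT and 5.24 to 7.86 on p38α-lox PyMT arrays. Of 5 tested markers of luminal progenitor and alveolar cells, Aldh1a3, a progenitor enzyme, averaged 7.69 on PyMT arrays against 9.54 on MMTV-Cre arrays. It fell there by 1.85 (adjusted p = 0.0437), but averaged 7.98 on p38α-lox PyMT arrays against 7.99 on p38α-lox arrays. Csn3, a milk casein, rose by 0.58 over both (adjusted p = 0.00831). Kit averaged 5.75 on p38α-lox PyMT against 7.23 on p38α-lox arrays, and 6.10 on PyMT against 5.84 on MMTV-Cre arrays. Kit, Elf5 and Csn2 were not called in these comparisons. In sorted bulk cells, fewer cells of a type and less RNA per cell cannot be told apart, and the part of these markers in the junction gene values was not tested.

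Most pairs of junction genes varied together across arrays. In each array the mean of the 9 genes, each centred on its own mean, ran from -0.99 on PyMT replicate 4 to 0.56 on p38α-lox replicate 1. PyMT replicate 4 was the lowest of 16 arrays for 4 of the 9 genes and was also, with p38α-lox replicate 2, the array least like the others over all probe sets. Ocln followed this mean most closely, with a Pearson correlation of 0.95 over 16 arrays and 0.96 after group means were removed. The mean includes the gene itself and the genes were not scaled, so genes that vary widely weigh more. Cdh1, Cldn8 and Epcam followed it least over the 16 arrays, at 0.28, 0.32 and 0.35. Of the 36 gene pairs, 31 had a positive correlation over the arrays and 30 within groups, with medians of 0.34 and 0.44. The share of positive pairs among other genes was not computed. The arrays share RNA quality and normalization, so these correlations are descriptions.

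Cldn3 and Cldn4 correlated at 0.75 within groups, while Epcam correlated there at 0.48 with Cldn3 and 0.59 with Cldn4. Ocln and Tjp1 correlated at 0.78 over the arrays and 0.84 within groups. Cdh1 and Ocln correlated at 0.40 over the arrays but 0.89 within groups, while their group means ran in opposite directions with PyMT. Cldn8 stood apart, with -0.52 against Cldn4 within groups. Among genes outside the set, those most like the mean of the 9 over 16 arrays were Il6st (0.94), the shared receptor subunit of interleukin-6 cytokines, Zbtb2 (0.92), Nol7 (0.91), Tmem168 (0.91) and Erbb3 (0.90), a receptor of the epidermal growth factor family.

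**Figure D4:**
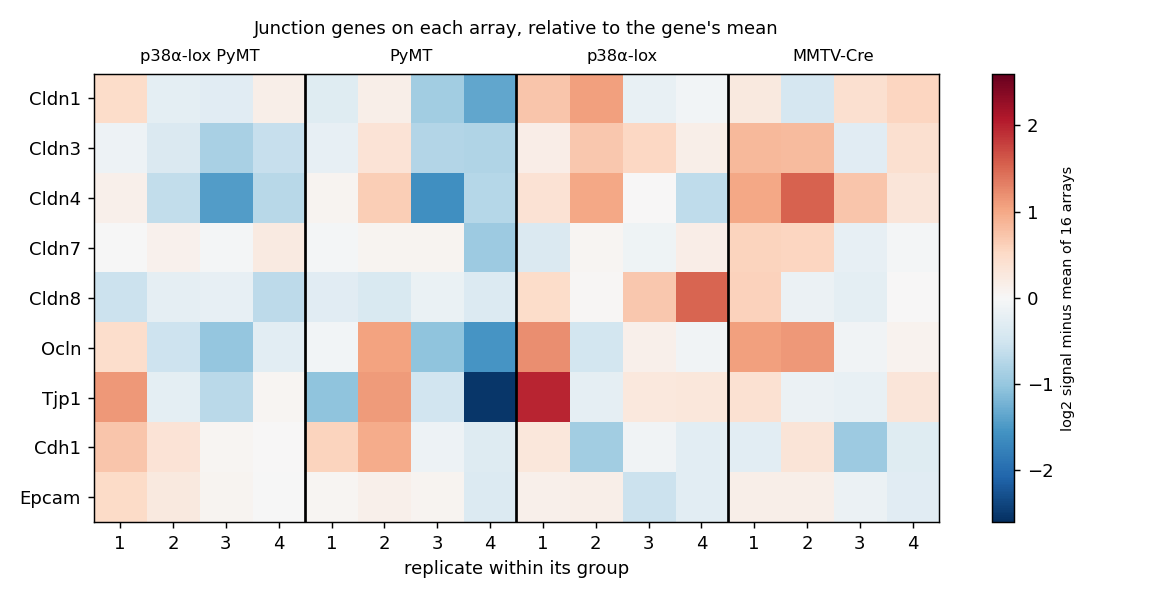
Log2 signal of each junction gene (rows) on each of 16 arrays (columns, numbered within their group), as the difference from the gene's mean over all arrays; red is above the mean and blue below. PyMT replicate 4 is blue for Cldn1, Ocln and Tjp1, and apart from PyMT replicate 2 the columns with PyMT are bluer or paler than most others for Cldn3 and Cldn4.

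The wider junction machinery was then read from lists of other claudins, tight junction proteins, polarity proteins, adherens junction partners, desmosome proteins, partners of EpCAM and regulators of epithelial genes. Between p38α-lox arrays and their controls 0 genes of these lists were called, with or without PyMT. With PyMT, the counts below stand beside 1.26% of all genes called for PyMT against MMTV-Cre, 0.777% for p38α-lox PyMT against p38α-lox and 6.18% over both. Of 17 tested tight junction genes outside the 9, 2 fell and 0 rose in p38α-lox PyMT against p38α-lox arrays (list median -0.28), 0 were called in PyMT against MMTV-Cre arrays (-0.16), and 3 fell over both. Of 17 regulators, 1 rose and 1 fell in PyMT against MMTV-Cre arrays (-0.44), 1 fell in p38α-lox PyMT against p38α-lox arrays (-0.22), and 1 rose and 4 fell over both. Of 9 desmosome genes, 1 fell in PyMT against MMTV-Cre arrays, and 1 rose and 1 fell over both. Over both, 1 of 14 adherens junction partners fell and 1 of 11 other claudins rose, counts near the 6.18% of all genes, and 0 of 12 polarity genes and 0 of 6 EpCAM partners were called.

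Magi1, a scaffold of tight junctions, had 6.81, 6.17, 6.55 and 6.40 on p38α-lox PyMT arrays, against 7.63, 8.04, 7.56 and 7.30 on p38α-lox arrays. It fell by 1.15 ± 0.218 there (adjusted p = 0.0251), with no overlap, a call kept in 10 of 16 fits without 1 array. Averaged over every Magi1 probe set, the difference was -0.57 and was not called. Marveld3, a membrane protein related to occludin, had 7.72, 7.75, 7.26 and 7.66 on p38α-lox PyMT arrays, against 8.54, 8.99, 8.92 and 8.71 on p38α-lox arrays, and fell by 1.19 ± 0.231 (adjusted p = 0.0290), also kept in 10 of 16. Over both, Magi1 fell by 1.01 and Marveld3 by 0.89, and so did Cxadr, which encodes the coxsackievirus and adenovirus receptor of the tight junction, by 1.48 ± 0.311. Nectin2, a nectin of the adherens junction, fell by 1.19 ± 0.251. Cldn2, which forms cation pores, rose by 1.05 ± 0.272, an estimate opposite in sign to those of Cldn1, Cldn3 and Cldn4, kept in 6 of 16 fits without 1 array. Averaged over every Cldn2 probe set it was 2.08.

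Among the regulators, Ovol2, a zinc finger repressor that maintains epithelial genes, had 5.24, 5.08, 4.87 and 4.56 on PyMT arrays, against 7.77, 5.52, 6.72 and 6.61 on MMTV-Cre arrays. It fell by 1.72 ± 0.382 there (adjusted p = 0.0429), by 1.94 ± 0.382 in p38α-lox PyMT against p38α-lox arrays (adjusted p = 0.0304) and by 1.83 over both. The first of these calls was kept in 5 of 16 fits without 1 array and the second in 11 of 16. Snai2, which encodes the Snail family repressor Slug and is also a basal cell gene, had 5.15 to 5.68 on PyMT arrays, against 4.69 to 4.78 on MMTV-Cre arrays, with every PyMT value above, as for 4.44% of all genes. It rose by 0.74 ± 0.157 (adjusted p = 0.0327), a call kept in 11 of 16 fits without 1 array, and in p38α-lox PyMT against p38α-lox arrays the difference was 0.71, with an adjusted p of 0.0507. Over both, the epithelial transcription factors Klf4, Ehf and Grhl1 fell by 1.76, 1.42 and 0.68 (not refitted without single arrays). In the desmosome list, Ppl, which encodes periplakin, fell by 1.55 ± 0.337 in PyMT against MMTV-Cre arrays (adjusted p = 0.0374, kept in 8 of 16), and Perp, a desmosomal membrane protein and target of p53 and p63, rose by 0.88 ± 0.174 over both. The calls over both of Magi1, Marveld3, Cxadr, Nectin2, Ovol2, Snai2, Ppl and Perp were each kept in 16 of 16 fits without 1 array.

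**Figure D5:**
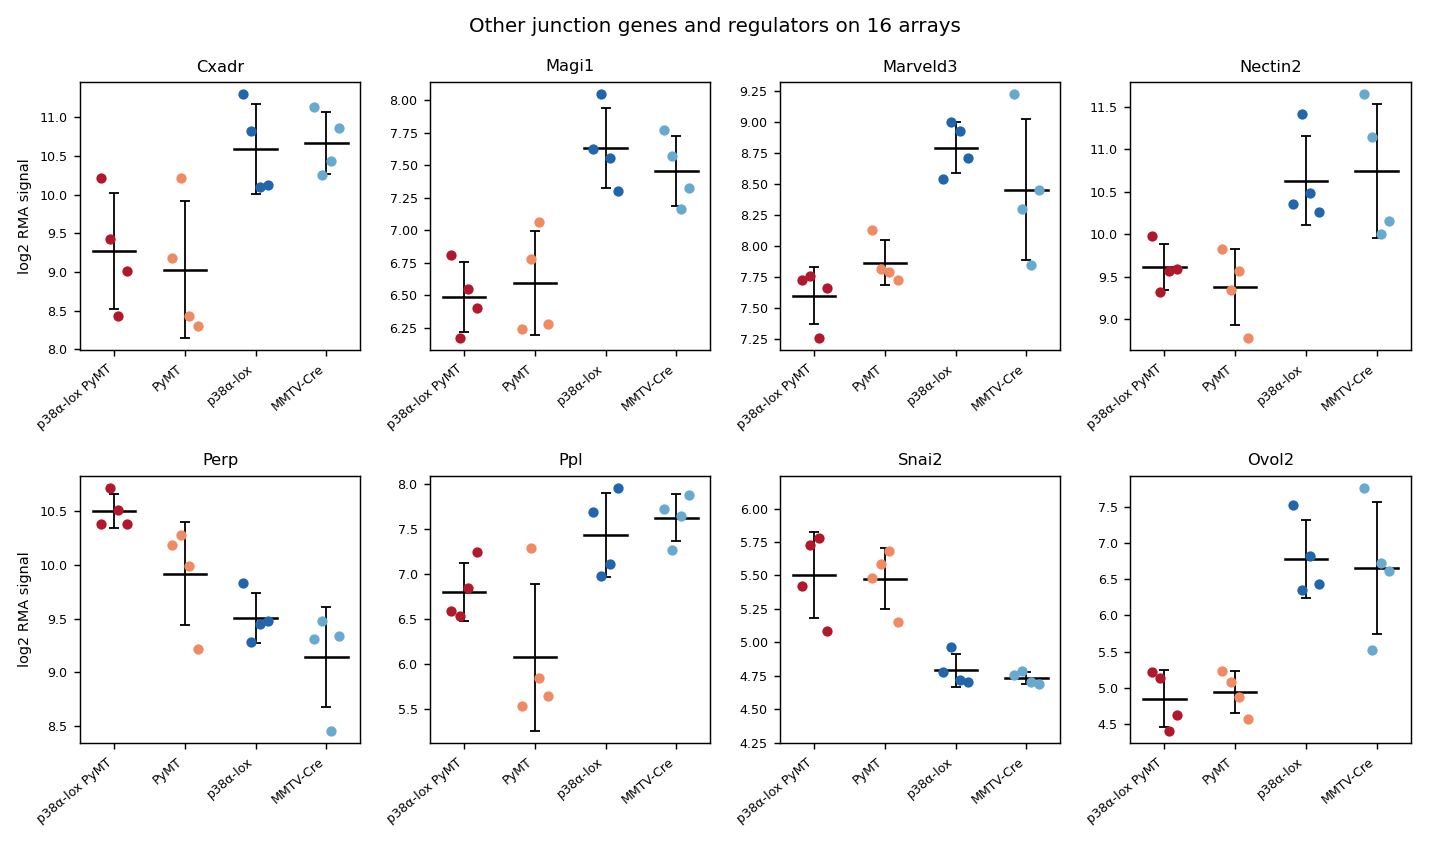
Log2 RMA signal of 8 called genes outside the set, 1 point per array, with group mean and SD (n = 4 each); vertical axes differ between panels and do not start at 0. Ovol2, Magi1 and Nectin2 have all 8 arrays with PyMT below all 8 without it, as do 0.396% of all genes, and Snai2 has all 8 above, as do 0.666%. The 8 genes were picked from calls on these same arrays, so no excess over those shares is read.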

How the data were processed

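The deposited table gives log2 signals for 45141 probe sets on 16 Affymetrix mouse arrays, produced with RMA, per the submitters' processing notes, which name no version or settings. RMA equalises the distributions of arrays, so total RNA cannot be compared, and array medians ran from 4.63 to 4.88. Probe sets with exactly 1 symbol in the platform annotation (28898) were used, and each gene took its brightest probe set by mean. Genes under the 25th percentile of signal were left out. Groups came from the genotype labels. limma 3.58.1 in R 4.3.3 fitted 1 model to the 4 groups (12 residual degrees of freedom, 2.83 prior), for genes and for all 33856 probe sets above the filter. The code was tested on simulated data. Values after ± are SE for differences and SD for means. Precision is limited by the number of arrays. The members, lists and named-gene rule (all 9 members; from each list the called genes, up to 6 a comparison, otherwise up to 2 with the smallest p) were chosen with earlier results of these data known. The comparison over both PyMT groups was added after seeing the data. The genes Klf4, Ehf and Grhl1 were named from it after their values were seen.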

Additional observations from a re-analysis of the deposited data

Results flagged for a closer look

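Among 152 sets of 4 arrays, 48 of them for the 12 junction probe sets, 7 had 1 array far from the other 3 by Dixon's test at the 95% level; chance alone flags about 1 in 20 such sets. For the junction genes, Cldn7 was at 9.98 on PyMT replicate 4, where the next array was at 10.87, and the brighter Epcam probe set was at 11.13 on the same array, where the next was at 11.53. The dimmer Epcam probe set was at 7.17 on MMTV-Cre replicate 4, where the next array was at 7.83. Cd9 at 9.13 and Cd44 at 7.26, both partners of EpCAM, were also lowest on PyMT replicate 4. Perp was lowest on MMTV-Cre replicate 3, at 8.45, and Cldn12 was highest on p38α-lox replicate 2, at 8.01. The 7 flagged sets of 152 are near the rate that chance alone gives, and whether anything set these arrays apart was not tested.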

How the results depend on the processing

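Depth is not given for arrays, and signal near the floor limits Cldn8. No junction gene or probe set was called for p38α-lox against its controls or for the difference between those effects under any alternative. For PyMT against MMTV-Cre, 1 gene (Cldn4) and 1 probe set were called with the title range as a covariate, and 1 probe set with array weights. For p38α-lox PyMT against p38α-lox, 1 gene (Cldn8) was called with eBayes trend and robust options. Array weights gave 3 genes (Cldn3 and Cldn8 lower, Epcam higher) and 5 probe sets. Without both p38α-lox replicate 2 and PyMT replicate 4, 1 gene (Cldn8) and 1 probe set were called. Cldn8 was tested only because of its signal on p38α-lox arrays, the reference group here, so its calls are not counted as support. Leaving out 1 array at a time gave 0 to 1 genes and 0 to 1 probe sets there, the 1 being Cldn8 without p38α-lox replicate 2. Over both PyMT groups, 2 genes (Cldn3, and Cldn8 near the filter) and 3 probe sets were called as reported. With the filter at the median or with median centring, 1 gene was called, Cldn3. Without both arrays or without the probe sets ending in x_at, 1 gene was called, Cldn8. Cldn3 was lost there, with adjusted p of 0.0773 and 0.0507. Array weights gave 5 genes (Cldn3, Cldn4 and Cldn8 lower, Cdh1 and Epcam higher) and 7 probe sets, and the title range covariate gave 5 probe sets. Leaving out 1 array at a time gave 0 to 3 genes and 0 to 4 probe sets there, with 0 genes without MMTV-Cre replicate 1 or p38α-lox PyMT replicate 4. For single junction genes, 1403 of 1428 recomputed values were counted as unchanged, 14 gained a call, 10 lost one and 1 turned: Cldn1 in p38α-lox PyMT against p38α-lox was 0.0516 with array weights. An estimate smaller than its SE and uncalled in both settings was taken as having no direction, so some values counted as unchanged differed in sign. Cdh1 in p38α-lox PyMT against PyMT, 0.02 as reported, was below 0 in 7 of 27 alternatives. Outside the 9 genes, 1 value turned, Evpl in PyMT against MMTV-Cre, whose range without 1 array ran from -0.425 to 0.0557. Of 27 alternatives, Ovol2 stayed called in 13 for PyMT against MMTV-Cre and 22 for p38α-lox PyMT against p38α-lox, Snai2 in 21 and Ppl in 17 for PyMT against MMTV-Cre, and Magi1 and Marveld3 in 19 each for p38α-lox PyMT against p38α-lox. Genes called in all ran from 51 to 1268 (182 as reported) for PyMT against MMTV-Cre, from 26 to 1416 (112) for p38α-lox PyMT against p38α-lox and from 554 to 2644 (891) over both. Causes were not tested. No paired analysis was possible because the labels give no shared replicate numbers.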
